A study of Mus musculus with 5 samples.

Results

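*Twist1*, *Twist2*, *Snai1*, *Snai2*, *Zeb1* and *Zeb2* encode the transcription factors most often linked to epithelial-to-mesenchymal transformation (EMT). These 6 genes were taken as a fixed set, by name, from the 24303 genes with a RefSeq-linked transcript. All 6 had tags in at least 1 library, as did 13493 genes in total. Their levels were followed in 5 Tag-seq libraries of the mouse heart at embryonic day 10.5 (Theiler stage 17). The 4 wild-type libraries were of strain C57BL/6 by the labels (C57BL/6J in the study's methods) and came from the atrioventricular canal (AVC), the outflow tract (OFT), the atria and the ventricles. The other library came from the AVC of *Twist1* Knockout embryos of strain ICR, called the *Twist1* null AVC here. Embryos were pooled, with 25 for the AVC, 25 for the OFT, 20 for the atria, 20 for the ventricles and 8 for the *Twist1* null AVC. Each group had 1 library, so no difference has a replicate check. Strain and genotype changed together and cannot be told apart in any comparison with the null.

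In the AVC and OFT, endocardial cells lose contact with each other, invade the extracellular matrix of the cushions and become the mesenchyme from which valves and septa form. TWIST proteins are basic helix-loop-helix (bHLH) factors that pair with E proteins on E-box DNA. SNAI proteins are zinc finger repressors of epithelial genes such as the one for E-cadherin, and ZEB proteins carry clusters of zinc fingers and bind similar sequences together with corepressors.

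Tag-seq counts short tags next to NlaIII sites (CATG) of polyadenylated RNA. The files held 4223810 to 12977237 tags, and no tag type with fewer than 6 tags was listed. That smallest count equals 0.462 TPM (tags per 1000000 tags of the file) in the *Twist1* null AVC and 0.988 to 1.42 TPM in the wild-type libraries, so a gene without a listed tag is not shown to be silent. Between 70.7% and 74.5% of tags matched 1 gene. Haemoglobin tags took 21.5% of the atria library and 0.242% to 4.67% of the others, and the atria library also held the highest share, 4.19%, of tags 1 base off another tag of 100-fold or greater abundance. Levels below are sums of all sense tags of a gene, with 95% exact (Clopper-Pearson) intervals that cover counting error only. A level is not comparable between genes, because genes differ in their number of usable sites, and all statements of order are within a gene.

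The 6 genes gave 25 sense tag types, each matching 1 gene, of which 24 lay in a 3′ UTR and 1 in coding sequence. Positions are counted from the 5′ end of the RefSeq-linked transcript and coordinates are on GRCm38 (GENCODE M21). The tags below carried most of the signal, or separated the libraries, and the capitals mark the NlaIII site.
*Twist1*, position 1510: CATGgtaaaatgcaaatagat
*Twist1*, position 1271: CATGcattctcaagaggtctt
*Twist2*, position 774: CATGaccccagtgcccaagtg
*Twist2*, position 1177: CATGgcctgctcagctagccg
*Snai1*, position 1413: CATGaataatggccatcactt
*Snai2*, position 1784: CATGtgatggatgcagtaata
*Zeb2*, position 4767: CATGtgtgaatttaagatacc
*Zeb2*, position 5261: CATGacgttgatcatttgggc
*Zeb2*, position 5597: CATGctcgaataaaaatgtag
The genes lie at chr12:33957671-33959829 (*Twist1*, plus strand), chr1:91801461-91848028 (*Twist2*, plus strand), chr2:167538195-167542814 (*Snai1*, plus strand), chr16:14705852-14709385 (*Snai2*, plus strand) and chr2:44983632-45117395 (*Zeb2*, minus strand). The main *Twist1* tag lies at chr12:33959711-33959731, the *Snai1* tag at chr2:167542606-167542626 and the *Snai2* tag at chr16:14709148-14709168, all in 3′ UTRs.

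*Twist1*, a gene of the cushion mesenchyme, had 5577 tags in AVC, 1574 in OFT, 296 in atria, 236 in ventricles and 59 in the *Twist1* null AVC. These are 918 TPM (894 to 942), 299 TPM (284 to 314), 63.4 TPM (56.4 to 71.1), 55.9 TPM (49.0 to 63.5) and 4.55 TPM (3.46 to 5.86). The wild-type AVC stood highest and the *Twist1* null AVC lowest, below both chambers. In this order the AVC was above the OFT (two-sided exact test of edgeR with a dispersion of 0.12, p = 0.0279, Benjamini-Hochberg adjusted p = 0.28), the OFT above the atria (exact p = 0.00311, adjusted p = 0.0111) and the ventricles above the null (exact p = 1.13e-05, adjusted p = 0.000176), while atria and ventricles had overlapping intervals (exact p = 0.805). Over all genes 43.5% were called lower and 7.89% higher in atria than in OFT, and 37.3% higher and 6.27% lower in the null than in ventricles.

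*Twist2*, the closest relative of *Twist1*, had 90 tags in AVC, 189 in OFT, 6 in atria, 7 in ventricles and 127 in the *Twist1* null AVC. Its levels were 14.8 TPM (11.9 to 18.2), 35.9 TPM (30.9 to 41.4), 1.29 TPM (0.472 to 2.80), 1.66 TPM (0.666 to 3.41) and 9.79 TPM (8.16 to 11.6). Unlike *Twist1*, it was highest in the OFT library, although OFT and AVC did not pass the test (exact p = 0.0933). The *Twist1* null AVC lay between the wild-type AVC, a step that did not pass the test (exact p = 0.44), and the ventricles, which were lower (exact p = 0.00589, adjusted p = 0.0242).

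*Snai1* had 264 tags in AVC, 97 in OFT, 10 in atria, 6 in ventricles and 62 in the *Twist1* null AVC, or 43.5 TPM (38.4 to 49.0), 18.4 TPM (14.9 to 22.5), 2.14 TPM (1.028 to 3.94), 1.42 TPM (0.521 to 3.09) and 4.78 TPM (3.66 to 6.12). The null stood close to the chambers, with an interval that overlapped that of the atria (exact p = 0.188), and below the OFT (exact p = 0.0135, adjusted p = 0.0756), a pair in which 13.8% of genes were called lower and 15.1% higher. *Snai2*, the second Snail-family gene linked to cushion EMT, had 81 tags in AVC, 57 in OFT, 6 in ventricles, 42 in the null and none listed in atria, where up to 5 tags or 1.07 TPM could be hidden. Its levels of 13.3 TPM (10.6 to 16.6) in AVC and 10.8 TPM (8.20 to 14.0) in OFT had overlapping intervals, and the null, at 3.24 TPM (2.33 to 4.37), overlapped the ventricles at 1.42 TPM (0.521 to 3.09). The step from the OFT to the null passed the test for *Snai2* (exact p = 0.0309) but not after adjustment (adjusted p = 0.128).

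*Zeb1*, a zinc finger repressor, had 1168 tags in AVC, 1054 in OFT, 56 in atria, 33 in ventricles and 1857 in the *Twist1* null AVC. It lies on chromosome 18, and its tags are described by position only. These tags gave 192 TPM (181 to 204), 200.1 TPM (188 to 213), 12.0 TPM (9.06 to 15.6), 7.81 TPM (5.38 to 10.97) and 143 TPM (137 to 150). All 3 cushion-bearing libraries, the null included, stood well above both chambers, and the step from the null to the atria passed the test (exact p = 9.99e-06, adjusted p = 0.000143), where 42.1% of genes were called higher and 5.3% lower in the null. *Zeb2* followed another pattern, with 178 tags in AVC, 184 in OFT, 127 in atria, 57 in ventricles and 491 in the null. Its levels were 29.3 TPM (25.2 to 33.9), 34.9 TPM (30.1 to 40.4), 27.2 TPM (22.7 to 32.4), 13.5 TPM (10.2 to 17.5) and 37.8 TPM (34.6 to 41.3). No pair of libraries next to each other in the order of *Zeb2* passed the test, and the lowest p among them was for atria and ventricles (exact p = 0.19).

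**Figure D1:**
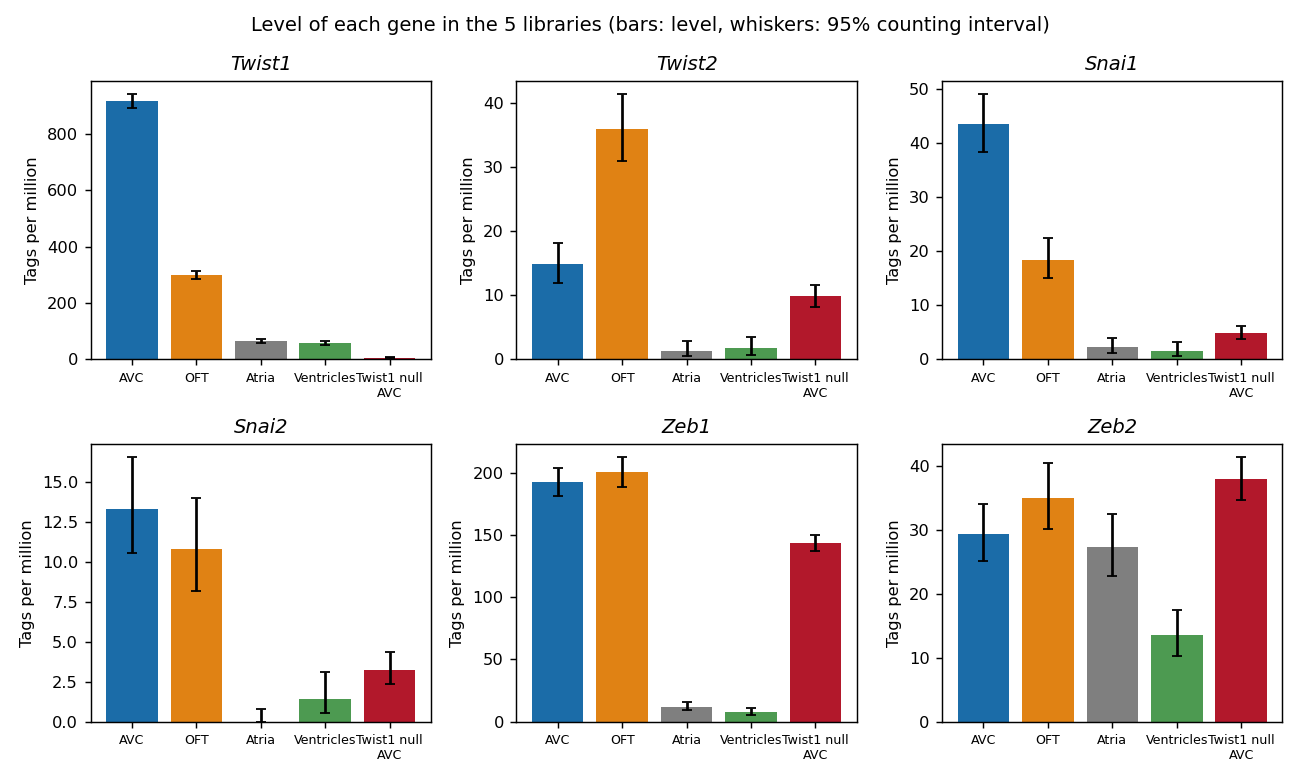
Levels of the 6 genes in TPM (y axis, starting at 0 and scaled per gene) in each of the 5 libraries (x axis), with whiskers for the 95% counting interval. Twist1 reaches 918 TPM in AVC and 4.55 TPM in the Twist1 null AVC, whereas Zeb2 stays between 13.5 and 37.8 TPM in all 5.

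The first comparison asked which genes were higher in the cushion-forming AVC than in the chambers, here the atria and ventricles summed to 1 reference. The AVC was called above the chambers for 5 of the 6 genes and below for none, where a call is an unadjusted exact p under 0.05. Among all 12503 genes tested 43.4% were called higher and 8.12% lower, and the median log2 ratio was 1.23. *Snai1* was 24.1-fold higher (14.6 to 42.9, exact p = 2.58e-07, adjusted p = 6.53e-06) and *Zeb1* 19.2-fold higher (15.5 to 24.1, exact p = 2.82e-07, adjusted p = 7.05e-06). *Snai2* was 19.8-fold higher (8.69 to 55.4, exact p = 1.32e-05, adjusted p = 0.000148), and 9.39-fold higher (exact p = 0.000844) when the atria library was left out. *Twist1* was 15.3-fold higher (14.0 to 16.8, exact p = 1.10e-06, adjusted p = 2.05e-05) and *Twist2* 10.1-fold higher (5.64 to 19.8, exact p = 0.000131, adjusted p = 0.000902). These sizes rest on few chamber tags. With 5 tags put in for each tag type that a library does not list, the log2 ratio of *Twist2* went from 3.33 to 2.51, that of *Snai1* from 4.58 to 3.89 and that of *Snai2* from 4.27 to 3.41, each still called. With only 3′-most sites counted *Twist2* was at 2.42 (exact p = 0.00499) and *Zeb1* was not called (log2 ratio 1.42, exact p = 0.0969). *Zeb2* was not called, at 29.3 TPM against 20.7 TPM (log2 ratio 0.50, exact p = 0.503).

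Scaling bears on this comparison. With TMM normalization, which centres the bulk of genes, the median log2 ratio of all genes dropped by 0.95, and 25.6% of genes were called higher and 17.5% lower. The 5 genes were still called higher with TMM, with log2 ratios 2.10 to 3.35 above the median of all genes in the fit with file totals, while *Zeb2* lay 0.73 below that median and turned to a log2 ratio of -0.45 with TMM. Erythroid markers moved with the chambers. The 10 markers summed to 215402 TPM in atria and 46730.3 TPM in ventricles against 2436 TPM in AVC. By the same test 10 of 17 cardiomyocyte markers had an AVC call above the chambers and 1 below (7 and 4 with TMM). Their median log2 ratio was 2.04, where that of all genes was 1.23. *Ttn* (21.4-fold) and *Myh6* (15.8-fold), picked after their values were seen, rose within the range of the 5 genes, while *Myl2* was 2.79-fold lower. For 12 cushion mesenchyme markers the counts were 10 and 1 (8 and 1 with TMM), with a median of 3.51. The part of these cell types in the ratios was not tested. Without haemoglobin tags in the totals the median log2 ratio of all genes dropped by 0.21, and no call of the 6 genes changed. That setting alters the totals only, so it does not bear on the cell types.

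The second comparison set the OFT against the same summed chambers, so it shares its reference with the first. Again 5 of 6 genes were called higher and none lower, where 40.6% of 12451 genes were called higher and 8.88% lower (26.2% and 17.7% with TMM, a drop of the median by 0.85 from 1.07). *Twist2* was 24.5-fold higher (14.0 to 46.9, exact p = 2.60e-07), *Zeb1* 19.99-fold (16.1 to 25.1, exact p = 2.16e-07), *Snai2* 16.0-fold (6.93 to 45.5, exact p = 3.83e-05), *Snai1* 10.2-fold (5.99 to 18.6, exact p = 0.000122) and *Twist1* 4.99-fold (4.52 to 5.52, exact p = 0.00215), with adjusted p between 5.47e-06 and 0.00858. Without the atria library *Snai2* was 7.62-fold higher (exact p = 0.00255). *Twist1* passed narrowly with TMM (log2 ratio 1.46, exact p = 0.0468) and with DESeq2 size factors (exact p = 0.0497) and was not called with a dispersion of 0.4 (exact p = 0.103). With only 3′-most sites counted *Twist2* had a log2 ratio of 3.48 and *Zeb1* was not called (exact p = 0.423), and with 5 tags for each missing tag type *Twist2* was at 3.78 and *Snai2* at 3.11, down from 3.97. *Zeb2* was again not called (1.69-fold, 1.37 to 2.08, exact p = 0.307) and changed sign with TMM (log2 ratio -0.10).

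The OFT and AVC libraries were then compared directly. *Twist1* was the 1 of the 6 genes that was called, 3.07-fold lower in the OFT (2.90 to 3.25, exact p = 0.0279, adjusted p = 0.28), where 7.35% of genes were called lower and 5.22% higher. *Twist2* was 2.42-fold above the AVC (1.88 to 3.15, exact p = 0.0933) and *Snai1* 2.36-fold below it (1.86 to 3.01, exact p = 0.0989), and neither was called. Scaled to the totals of all tags, *Twist1* was not called (log2 ratio -1.26, exact p = 0.0836) and *Twist2* was called higher (log2 ratio 1.63, exact p = 0.033). *Snai2*, *Zeb1* and *Zeb2* had ratios of 0.812 (0.568 to 1.15), 1.04 (0.957 to 1.13) and 1.19 (0.965 to 1.47), with counting intervals that include no change.

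Between ventricles and atria none of the 6 genes was called at an unadjusted exact p under 0.05, where 11.1% of genes were called higher and 9.03% lower in the ventricles. *Zeb2* had 13.5 TPM in ventricles and 27.2 TPM in atria (log2 ratio -1.01, exact p = 0.19). *Snai2*, with 6 tags in ventricles and none listed in atria, came closest to the threshold (exact p = 0.0619).

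In the comparison of the *Twist1* null AVC with the wild-type AVC, 3 of the 6 genes were called lower and none higher, where 12.7% of 12963 genes were called lower and 11.9% higher (9.36% and 14.9% with TMM) and the median log2 ratio was -0.16. *Twist1* itself was 202-fold lower (156 to 266, exact p = 2.61e-15, adjusted p = 3.39e-11). It is the gene knocked out in this library, so its call cannot be set against the shares of all genes. Among the other members only *Snai1* and *Snai2* were called. *Snai1* was 9.10-fold lower (6.87 to 12.2, exact p = 8.02e-05, adjusted p = 0.00494). *Snai2* was 4.12-fold lower (2.80 to 6.13, exact p = 0.0108), but its adjusted p of 0.0846 was above 0.05. The other 3 genes were not called. *Twist2* had a log2 ratio of -0.60 (exact p = 0.44), *Zeb1* of -0.43 (exact p = 0.555) and *Zeb2* of 0.37 (exact p = 0.616). As ratios of null to wild type these are 0.661 (0.500 to 0.875), 0.744 (0.691 to 0.802) and 1.29 (1.09 to 1.54), intervals that leave out the variation between embryos.

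The 59 *Twist1* tags of the null were all of the 3′-most tag type, at position 1510 in the 3′ UTR. The part of the gene removed in the null allele is not given in the sources used here, so these tags can check the label only if that part includes the 3′ UTR or stops the transcript. No tag 1 base away from any of the members' tags was listed in the null library, whereas 107 such tags lay beside the main *Twist1* tag in the AVC.

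Among markers of cell types, those of the cushion mesenchyme and of erythroid cells moved most in the same comparison. The 12 cushion mesenchyme markers, which do not include the 6 genes, summed to 2732 TPM in AVC, 3298 TPM in OFT, 193 TPM in atria, 207 TPM in ventricles and 574 TPM in the *Twist1* null AVC. In the null 7 of these 12 were called lower and 1 higher, where 12.7% of all genes were called lower and 11.9% higher. Their median log2 ratio was -1.84. *Mgp* (matrix Gla protein) went from 12.3 TPM to no listed tag, and *Lum* was the marker called higher (4.84-fold). *Snai1* and *Snai2* thus fell along with most of these markers. In bulk tissue fewer mesenchymal cells, less RNA per cell and the difference of strain cannot be told apart. Cardiomyocyte markers (17 genes) summed to 27592.5 TPM in AVC and 24063 TPM in the null, with *Myh6* alone called lower (9.31-fold) and *Nkx2-5* alone called higher (3.91-fold). Endothelial and endocardial markers (12 genes) summed to 617 TPM and 680.04 TPM, with 1 called higher and none lower. Epicardial markers (6 genes) summed to 269.6 TPM and 176 TPM, with 1 called lower and none higher. The endothelial markers *Cldn5* and *Emcn* had no listed tag in AVC. Neural crest markers were low throughout, at 49.5 to 173 TPM summed over 10 genes, and *Foxd3*, *Tfap2b*, *Pax3* and *Dlx5* had no tag in any library. None of the 4 neural crest markers that could be tested in this comparison was called. Erythroid markers were at 2436 TPM in AVC and 27374 TPM in the null, with 5 of 10 called higher and none lower. The part of these cell types in the ratios of the 6 genes was not tested.

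The null was also compared with the summed chambers. *Zeb1* was 14.3-fold higher (11.6 to 17.9, exact p = 2.39e-06), *Twist2* 6.69-fold higher (3.78 to 12.9, exact p = 0.00136) and *Snai2* 4.80-fold higher (2.03 to 13.8, exact p = 0.0256, adjusted p = 0.0642). *Twist1* was 13.2-fold lower than in the chambers (10.04 to 17.5, exact p = 5.28e-06). *Snai1*, at 4.78 TPM against 1.80 TPM, was not called (exact p = 0.104), nor was *Zeb2*, at 37.8 TPM against 20.7 TPM (exact p = 0.239). So 3 of 6 were called higher and 1 lower, where 39.6% of genes were called higher and 6.56% lower (25.6% and 13.1% with TMM). The 1 lower gene was *Twist1*, which was knocked out in this library, so its call cannot be set against these shares. The call of *Zeb1* was lost with only 3′-most sites counted (log2 ratio 0.29, exact p = 0.74) and that of *Twist2* with a dispersion of 0.4 (exact p = 0.0722). The call of *Snai2* was lost with TMM (exact p = 0.135), DESeq2 size factors (0.135), a dispersion of 0.4 (0.148), 5 tags for each missing tag type (0.143), rescaling by first base (0.129) and without the atria (2.28-fold, 0.247), as well as after adjustment. *Snai1* was called higher with all-tag totals (exact p = 0.0243), a dispersion of 0.05 (0.0249), rescaling by first base (0.0308) and a limit of more than 10 tags per tag type, which leaves it no chamber tag.

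**Figure D2:**
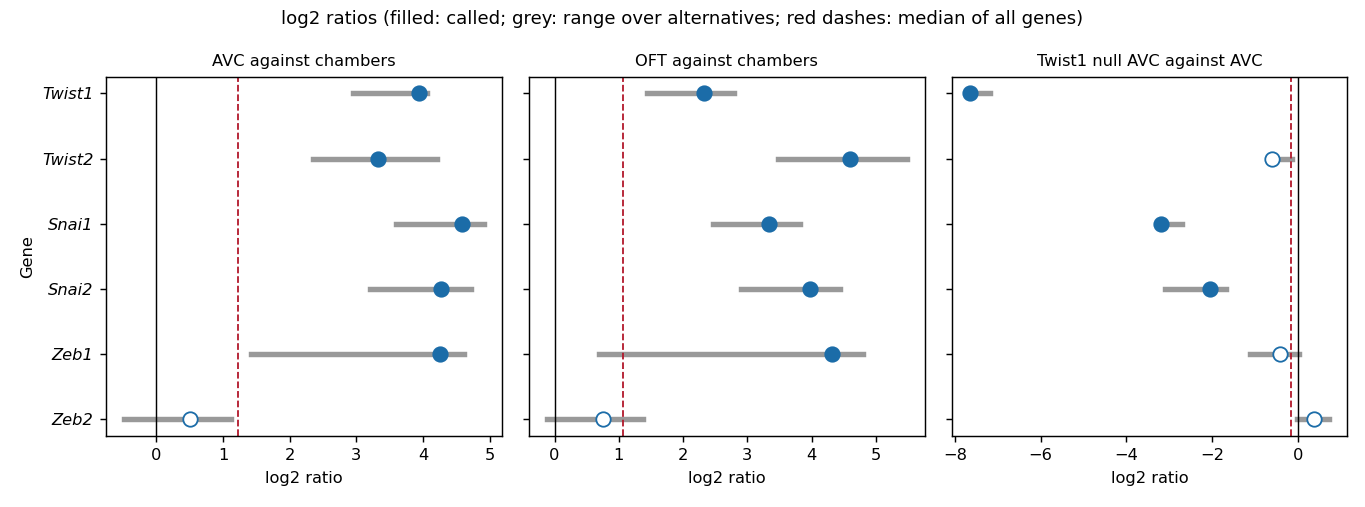
log2 ratios (x axis) of the 6 genes (y axis) in the comparisons of AVC with chambers, OFT with chambers and Twist1 null AVC with AVC, filled where the exact p was under 0.05. Grey bars span all alternative settings in which both sides had tags and the red dashes mark the median of all genes, at 1.23, 1.07 and -0.16. Zeb2 lies left of that line in the 2 chamber comparisons and Twist1 is at -7.65 in the null.

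*Zeb1* and *Zeb2* have long 3′ UTRs with many NlaIII sites, and their tags were spread over several of them. For *Zeb1* the site 620 bases from the 3′ end held 80.4% (78.0 to 82.6) of tags in AVC, 76.3% (73.6 to 78.8) in OFT, 30.4% (18.8 to 44.1) in atria, 63.6% (45.1 to 79.6) in ventricles and 66.8% (64.6 to 69.0) in the null. The 3′-most site, 196 bases from the end, held 42.9% (29.7 to 56.8) in atria but 3.77% (2.75 to 5.02) in AVC, 2.18% (1.39 to 3.26) in OFT and 2.32% (1.68 to 3.11) in the null, and it had no listed tag in the ventricles. The size of the *Zeb1* difference therefore depended on the site. AVC over chambers was 36.2-fold (26.1 to 51.4) at the first of these sites and 2.68-fold (1.60 to 4.61) at the 3′-most one. With only 3′-most sites counted, *Zeb1* was not called in the AVC (log2 ratio 1.42, exact p = 0.0969) or in the OFT (log2 ratio 0.69, exact p = 0.423). A site 2108 bases from the end had 6 tags in AVC and 88 in the null, or 6.87-fold more in TPM (3.03 to 19.2), while the site at 620 bases was 1.62-fold lower (1.48 to 1.76). The 6 tags in AVC are the smallest count that the file lists, a limit that the interval does not cover.

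With file totals the sites of *Zeb2* differed in direction. The site 364 bases from the 3′ end (chr2:44987466-44987486) had 29 tags in AVC, 18 in OFT, 58 in atria, 27 in ventricles and 50 in the null. It held 45.7% (36.8 to 54.7) of *Zeb2* tags in atria and 47.4% (34.0 to 61.0) in ventricles against 16.3% (11.2 to 22.6) in AVC, 9.78% (5.90 to 15.0) in OFT and 10.2% (7.65 to 13.2) in the null. At this site the AVC was 2.00-fold below the chambers (1.30 to 3.17) and the OFT 2.80-fold below (1.67 to 4.95). The 3′-most site, at chr2:44987130-44987150, was instead 1.56-fold above the chambers in the AVC (1.16 to 2.09) and 2.23-fold in the OFT (1.69 to 2.95). On the log2 scale it lay 0.74 (AVC) and 0.05 (OFT) below the median of tag types with its first base. Its log2 ratio of 0.64 in the AVC was smaller than the drop of 0.95 in the median of all genes with TMM, so that direction depends on the scaling. A further site 858 bases from the end, with the tag at position 4767, had 25 tags in AVC, 27 in OFT, 6 in atria, none listed in ventricles and 132 in the null. Its share of *Zeb2* tags was 14.0% (9.30 to 20.03) in AVC and 26.9% (23.0 to 31.0) in the null. With this scaling the sum over sites thus joined tag types with ratios above and below 1. These ratios of single tag types have counting intervals and no test.

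**Figure D3:**
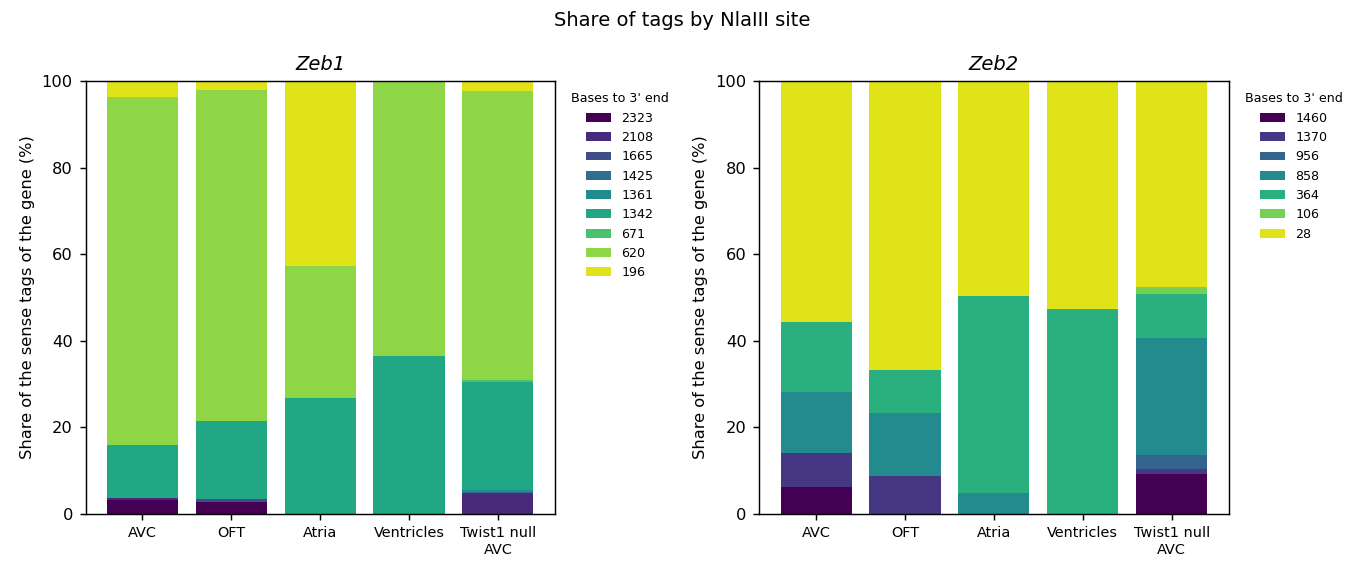
Share of the sense tags of Zeb1 and Zeb2 (y axis, percent) from each NlaIII site in each library (x axis), with sites coloured by their distance in bases from the 3′ end of the longest transcript. For Zeb1 the site at 196 bases makes up 42.9% in atria and 3.77% or less in the other libraries, and for Zeb2 the site at 364 bases makes up 45.7% and 47.4% in chambers.

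The tags of the other genes were less spread. The 3′-most *Twist1* site held 96.8% (96.4 to 97.3) of tags in AVC, 95.6% (94.5 to 96.6) in OFT and all tags in the other 3 libraries. *Twist2* had its tags on a pair of sites. The 3′-most one held 53.3% (42.5 to 63.9) in AVC, 46.0% (38.8 to 53.4) in OFT and 72.4% (63.8 to 79.99) in the null, and it alone was listed in chambers, with 6 and 7 tags. In the null the 3′-most *Twist2* tag had a ratio of 0.897 to the wild-type AVC (0.626 to 1.30) and the other tag, at position 774, was 2.56-fold lower (1.60 to 4.14). *Snai1* had 249 of its 264 AVC tags at the 3′-most site, the other 15 being at position 1093, and *Snai2* had a single tag type.

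**Figure D4:**
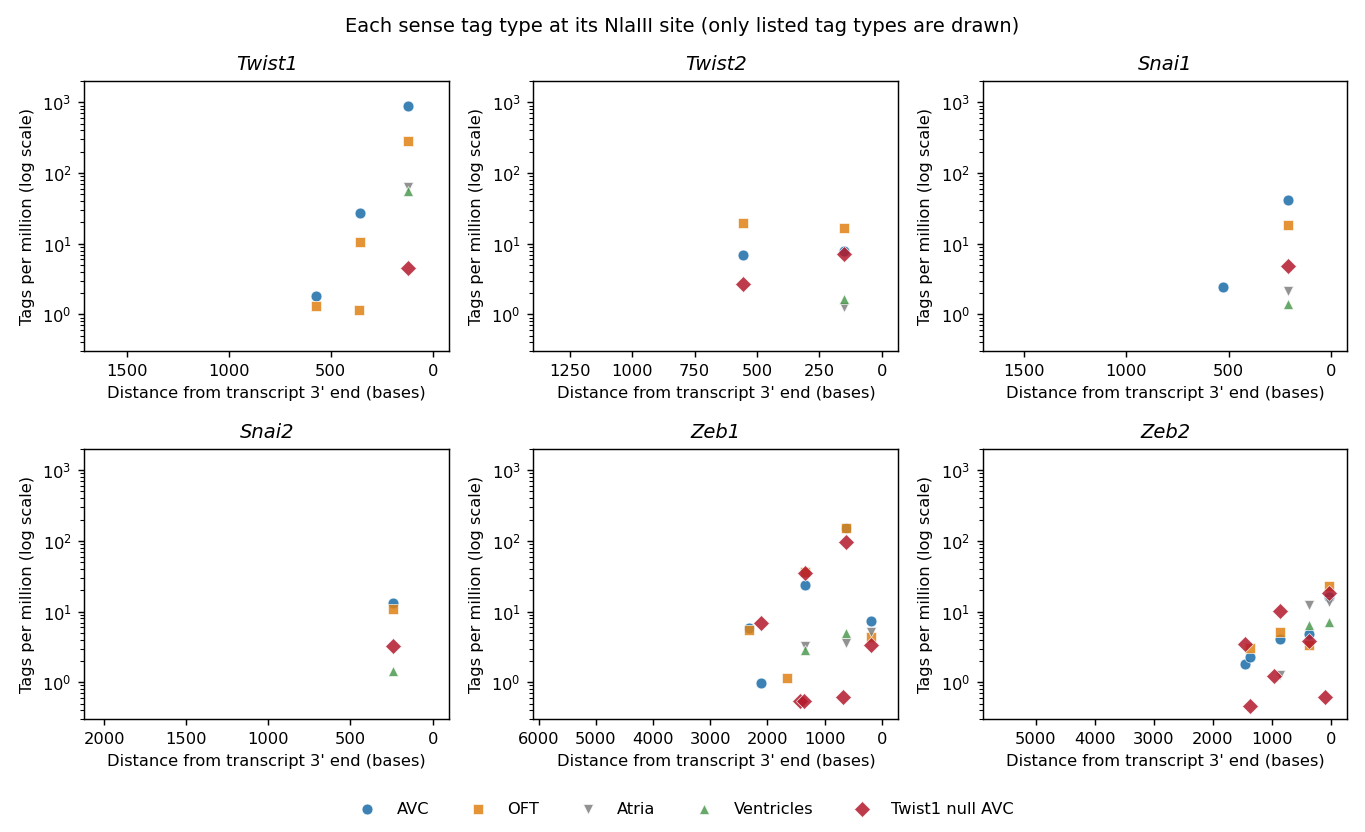
Level of each listed sense tag type in TPM (y axis, log scale) against the distance of its NlaIII site from the 3′ end of the transcript in bases (x axis, 3′ end at the right), with 1 symbol per library. Twist1, Snai1 and Snai2 have their highest tags at the 3′-most site, whereas the highest Zeb1 tag outside the atria lies 620 bases from the end.

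The null library also differed from the AVC by the first base of the tag. Over all genes, tag types with at least 50 tags that start with T after the NlaIII site had a median log2 ratio of 0.91 (null over AVC), against -0.61 for A, -0.61 for G and -0.37 for C. The only *Snai2* tag starts with T, and its log2 ratio of -2.04 lay 2.95 below the median of such tags. The *Snai1* tag starts with A and lay 2.49 below its median, and the main *Twist1* tag starts with G and had a log2 ratio of -7.61 where that median was -0.61. For *Zeb1* the main tag starts with G and lay 0.08 below, and with each tag rescaled by the median of its first base the log2 ratio of *Zeb1* became 0.04 (exact p = 0.96). The 3 genes that were called stayed called after this rescaling. The *Zeb2* tag at position 4767 starts with T and was 2.47-fold higher in the null (1.60 to 3.96), 0.40 above the median of T tags on the log2 scale.

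**Figure D5:**
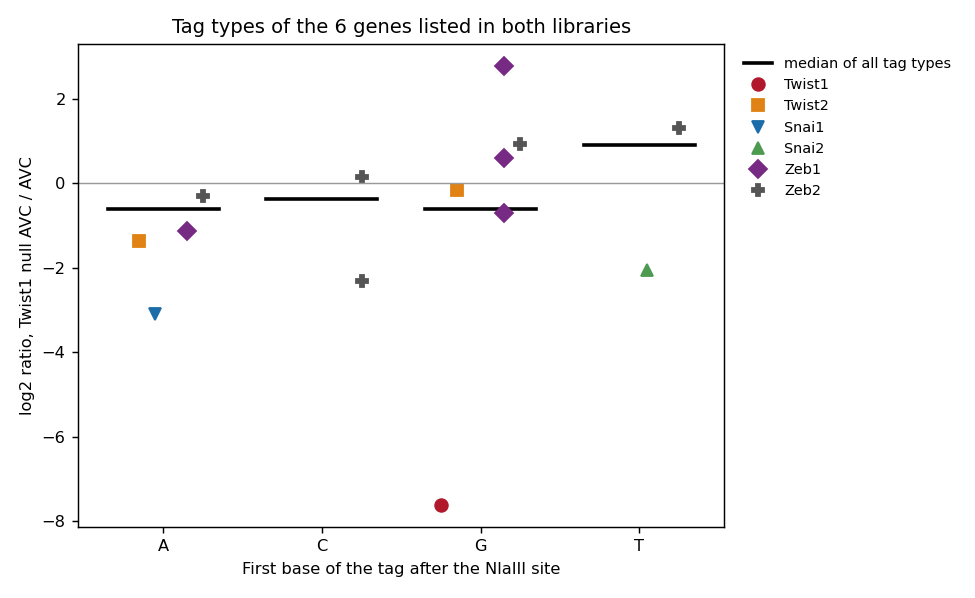
log2 ratio of null to wild-type AVC (y axis) for each tag type of the 6 genes listed in both libraries, by the first base after the NlaIII site (x axis), with black lines for the median of all tag types that start with that base. The Snai2 tag is at -2.04 where the median of T tags is 0.91, and the main Twist1 tag lies far below all others.

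Genes that act with these factors were described by lists. Of 9 genes for E proteins, Id factors and Hand factors 7 were called higher in the AVC than in the chambers (3 with TMM) and none lower. Their median log2 ratio was 2.39 where that of all genes was 1.23. The shares of all genes called higher were 43.4% and, with TMM, 25.6%, so the 3 of 9 called with TMM are near that background. *Id2*, an inhibitor of bHLH dimers, had 1086 TPM in AVC, 959.6 TPM in OFT, 63.0 TPM in atria, 102 TPM in ventricles and 801 TPM in the null, and was 13.3-fold higher in the AVC than in the chambers (exact p = 3.06e-06). *Id4* was 9.93-fold higher (exact p = 9.23e-05). In the null none of the 9 was called at an unadjusted exact p under 0.05, with edgeR or with TMM, where 12.7% of all genes were called lower and 11.9% higher, and the median was 0.07. The smallest exact p there were 0.143 for *Id4* (25.7 TPM in AVC, 54.5 TPM in the null) and 0.214 for the E protein gene *Tcf3* (92.7 and 49.3 TPM).

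Among 7 other Twist-like and Snail-family genes, 1 could be tested in the AVC against the chambers, *Scx* (scleraxis), which was not called (3.79 TPM in AVC, exact p = 0.284). In the null 2 could be tested. *Snai3*, a further Snail-family gene, had no listed tag in AVC and 3.70 TPM in the null from 1 tag type, at least 4.49-fold higher with 5 tags as the limit for the AVC library (exact p = 0.000154, adjusted p = 0.00756). *Scx* was not called (exact p = 0.718).

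Of 16 corepressor genes of SNAI and ZEB proteins 10 were called higher in the AVC than in the chambers (7 with TMM) and none lower, with a median log2 ratio of 1.93, where 43.4% of all genes were called higher (25.6% with TMM) and 8.12% lower. *Hdac1*, a histone deacetylase, had 57.4 TPM in AVC and no listed tag in either chamber, at least 10.2-fold higher with 5 tags allowed per tag type and chamber library. *Mbd3*, of the NuRD complex, was at least 6.73-fold higher on the same terms. In the null 1 of 16 was called higher and 1 lower (2 and 1 with TMM), which is no more than the 11.9% and 12.7% of all genes. *Ctbp1*, the C-terminal binding protein that ZEB proteins recruit, was 3.93-fold higher (exact p = 0.00825, adjusted p = 0.0699), and 79.3% of its tags in the null start with T. *Rbbp7* was 3.41-fold lower (exact p = 0.0167, adjusted p = 0.105).

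Of 27 genes for signals that induce cushion EMT 16 were called higher in the AVC than in the chambers and 2 lower (13 and 4 with TMM), with a median log2 ratio of 2.73, where 43.4% of all genes were called higher and 8.12% lower (25.6% and 17.5% with TMM). *Bmp2*, a myocardial inducer of the transformation, was 93.3-fold higher (220 TPM against 2.36 TPM in the summed chambers, exact p = 3.75e-12). The size of this fold rests on few chamber tags, with 4.5 TPM in atria and no listed tag in ventricles. *Erbb3*, a neuregulin receptor, had 20.6 TPM in AVC and no listed tag in the chambers, at least 9.15-fold higher. The 2 lower genes, named after their values were seen, were the Notch target *Hey1* (22.4-fold) and *Ctnnb1* (7.30-fold), for beta-catenin. In the null 3 of 27 were called lower and 1 higher (3 and 2 with TMM), near or under the 12.7% and 11.9% of all genes (9.36% and 14.9% with TMM). *Dll4*, a Notch ligand, was 8.01-fold lower (exact p = 0.00199, adjusted p = 0.0288), *Nrg1*, for neuregulin, 5.37-fold lower (exact p = 0.00306, adjusted p = 0.0381) and *Bmp2* 4.31-fold lower (exact p = 0.005, adjusted p = 0.0538), while *Bmp4* was 3.01-fold higher (exact p = 0.0374, adjusted p = 0.172). The last pair was also named after its values were seen.

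Epithelial adhesion and polarity genes, among them known targets of these repressors, were low. Of 25 genes 13 could be tested in the AVC against the chambers, with 5 called higher and 2 lower (3 and 5 with TMM), where 43.4% of all genes were called higher and 8.12% lower (25.6% and 17.5% with TMM). In the null against the AVC 13 could be tested, with 1 called in each direction (11.9% of all genes higher and 12.7% lower). These counts are small and mostly near the shares of all genes. *Patj*, a polarity scaffold gene, had 7.57 TPM in AVC, 2.09 TPM in OFT, no listed tag in the atria, 1.66 TPM in ventricles and 1.002 TPM in the null. It was 9.62-fold higher in the AVC than in the chambers (exact p = 0.000492) and 7.56-fold lower in the null (exact p = 0.001, adjusted p = 0.0198). *Llgl2*, another polarity gene, had 5.27 TPM in AVC and no listed tag in the chambers, at least 1.17-fold higher with 5 tags allowed in each chamber library for each of its 4 tag types. *Cldn3*, a tight junction gene, was listed in the null only, at 0.925 TPM, at least 1.12-fold higher than the limit of the AVC library (exact p = 0.0168, adjusted p = 0.105).

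Of 16 mesenchymal effector genes 15 could be tested against the chambers, and 10 were called higher in the AVC (6 with TMM) and none lower, where 43.4% of all genes were called higher (25.6% with TMM) and 8.12% lower. In the null 6 of 16 were called lower and 2 higher (5 and 3 with TMM), where 12.7% of all genes were called lower and 11.9% higher (9.36% and 14.9% with TMM), with a median log2 ratio of -0.95 where that of all genes was -0.16. *Tgfbi*, for an extracellular matrix protein, had 117 TPM in AVC, 223 TPM in OFT, 1.29 TPM in atria, 3.79 TPM in ventricles and 14.1 TPM in the null. It was 47.1-fold higher in the AVC than in the chambers (exact p = 9.03e-10) and 8.26-fold lower in the null (exact p = 9.93e-05, adjusted p = 0.0058). *Pdgfrb*, a growth factor receptor of mesenchyme, had 15.3 TPM in AVC and no listed tag in the chambers, at least 4.54-fold higher. *Acta2*, for smooth muscle actin, rose 5.98-fold in the null (exact p = 0.000705, adjusted p = 0.017), and 98.9% of its tags there start with T. Each list shares the libraries, the scaling and the tissue differences described above.

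For each of the 6 genes the 3 genes with the most similar profile were sought among 10207 genes with at least 100 tags, by the root mean square difference of log2(TPM + 1) over the 5 libraries after centring. *Twist1* had no close match. Its profile includes the library in which *Twist1* itself was knocked out (4.55 TPM), so its distances cannot be compared with those of the other members. A match over the wild-type libraries alone was not sought. Its nearest genes were *Pgap2* at 1.06, *Slfn9* at 1.16 and *Ltbp1*, for a TGF-beta binding protein, at 1.16, and *Ltbp1* had 121 TPM in AVC, 142 TPM in OFT, 7.72 TPM in atria, 16.1 TPM in ventricles and 5.16 TPM in the null. For the other 5 genes the nearest gene was within 0.16. *Twist2* was closest to *Acad11* (0.093), *Ppp1r12a* (0.149) and *Zscan20* (0.157), and *Snai1* to *Baalc* (0.150), *Myh6* (0.167) and *Tmem14a* (0.168). *Myh6*, a cardiac myosin heavy chain gene, had 2696 TPM in AVC, 904 TPM in OFT, 196 TPM in atria, 142 TPM in ventricles and 289.5 TPM in the null, the same order of libraries as *Snai1*. *Snai2* was closest to *Fam69b* (0.090), *Zcchc9* (0.105) and *Tfe3* (0.114), *Zeb1* to *Ptprs* (0.158) and *Znrf1* (0.192), and *Zeb2* to *Atg12* (0.090), *Nudt13* (0.101) and *Ppp2r3c* (0.102). These likenesses rest on 5 values each and describe the libraries. The genes named also depended on the pseudocount, and for each member they changed in part or in full with a pseudocount of 5.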

How the data were processed

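Per the labels and methods, the deposited values are raw counts per tag type, of which the authors kept those with more than 5 tags. Samples were grouped by the labels for tissue and genotype. Tags (17 bases) were assigned to the gene whose sense strand alone they matched, at any NlaIII site of 33363 RefSeq-linked GENCODE M21 transcripts (20 adenines added). No genome was searched for further matches. TPM are tags per 1000000 of the file total (6075421 for the AVC, 5267618 for the OFT, 4666514 for the atria, 4223810 for the ventricles and 12977237 for the *Twist1* null AVC).

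Libraries were compared with edgeR 4.0.16 in R 4.3.3 (exact test, two-sided) over all genes with a tag in them, with the dispersion of 0.12 that the study's methods give. Calls were made at an unadjusted exact p under 0.05, with Benjamini-Hochberg values over all genes beside them. The fixed dispersion stands in for the spread between samples, and each test compares single libraries, not conditions. Fold intervals are exact binomial. Python 3.11.15, numpy 2.4.6, pandas 2.3.3, scipy 1.17.1 and matplotlib 3.10.9 were used, and the test was first checked on simulated data.

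The 6 genes and all gene lists were chosen with earlier results of these data known. Besides the 6, the text names the 3 genes of nearest profile to each (pseudocount 1, alternative 5) and, from each pathway list, up to 2 genes of smallest exact p in the AVC against the chambers and in the null against the AVC. 1 gene that this rule names is not reported here. Alternatives changed the scaling (TMM, DESeq2 1.42.0 size factors, all-tag totals, totals without haemoglobin), the dispersion (0.05, 0.4), the adjustment of p, the limits on tags (more than 10 per tag type, the same limit in TPM, at least 50 per gene), the sites and transcripts used, tags 1 base from abundant tags, the fill for missing tag types, the first base of tags and the chamber libraries.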

Additional observations from a re-analysis of the deposited data

Results flagged for a closer look

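Tags on the antisense strand, and tags of transcripts without a RefSeq link, stood outside all comparisons above, and the largest signals are given here as values because they were above what the chamber or other libraries listed. *Twist1* had 208 antisense tags in AVC and 98 in OFT, or 3.73 and 6.23 per 100 sense tags, and none listed in the atria, the ventricles or the *Twist1* null AVC. Of the 208, 199 lay at the NlaIII site of the main sense tag. *Twist2* had 24 antisense tags in the OFT and 35 in the null, or 4.56 and 2.70 TPM, so the OFT stood higher once scaled. *Snai1* had 17 antisense tags in the AVC and none listed elsewhere. *Snai2* had 16 antisense tags in the OFT and 11 in the AVC, at a site without a listed sense tag. *Zeb1* had 94 antisense tags in OFT, 108 in AVC and 228 in the null, or 17.8, 17.8 and 17.6 TPM, and none listed in the chambers. Most of the *Zeb1* antisense tags lay at a site 803 bases from the 3′ end, where no sense tag was listed, with 93 tags in AVC, 76 in OFT and 136 in the null. *Zeb2* had 264 antisense tags in the null, 106 in AVC, 87 in OFT, 22 in atria and 19 in ventricles, or 53.8, 59.6, 47.3, 17.3 and 33.3 per 100 sense tags. *Zeb1* transcripts without a RefSeq link had 11 tags in the OFT and none listed elsewhere. *Zeb2* transcripts without a RefSeq link had 97 tags in the null, 25 in AVC, 16 in atria and 17 in ventricles. These are 7.47, 4.11, 3.43 and 4.02 TPM.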

How the results depend on the processing

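The number of the 6 genes called in the AVC and the OFT against the chambers and in the null against the AVC stayed within 1.5 times of the value reported under every alternative run. In the OFT against the AVC, where 1 gene was called, 3 were called with a dispersion of 0.05, 0 with a dispersion of 0.4 and 0 with Benjamini-Hochberg adjusted p. In the ventricles against the atria, where 0 were called, 1 was called with a dispersion of 0.05, 1 with the same limit in TPM and 1 with 3′-most sites only. In the null against the chambers the count went from 4 to 2 with a dispersion of 0.4. Leaving out the atria or the ventricles gave 5 to 5 genes in the AVC, 5 to 5 in the OFT and 3 to 4 in the null against the chambers. The log2 ratio changed sign for *Zeb2* in the AVC against the chambers (-0.45 with TMM, -0.49 with DESeq2 size factors), *Zeb2* in the OFT against the chambers (-0.10 and -0.12), *Zeb2* in the null with 3′-most sites only (-0.0082), *Zeb1* in the null with first-base rescaling (0.037), *Snai2* in the OFT against the AVC with all-tag totals (0.055) and *Zeb1* in the OFT against the AVC with 3′-most sites only (-0.73). None of these was called in either fit, and the causes were not tested. Calls were lost for *Twist1* in the OFT against the chambers with a dispersion of 0.4 (exact p = 0.103), and for *Snai2* in the null against the AVC with that dispersion (exact p = 0.164) and after adjustment, for *Twist1* in the OFT against the AVC with all-tag totals (exact p = 0.0836), and in the null against the chambers for *Twist2* with a dispersion of 0.4 (exact p = 0.0722) and *Zeb1* with 3′-most sites only (exact p = 0.74), beside the losses given with the results for *Zeb1* and, in the null against the chambers, *Snai2*. With a pseudocount of 5, between 0 and 2 of the 3 genes of nearest profile were shared with those reported. No paired analysis was possible because each group has 1 library. Depth limits low genes most. A chamber value of 6 or 7 tags, as for *Twist2*, *Snai1* and *Snai2*, sits at the limit of the files.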
